A study of Sorghum bicolor with 16 samples.

Results

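This report describes 60 sorghum genes whose transcript level peaked at 6 DPA (days post anthesis) in WT endosperm and at 11 DPA in endosperm of the waxy mutant wxe. They were chosen from the deposited FPKM values (read fragments mapped to a gene, scaled to its length and to the library's total). A gene had to have its highest WT mean at 6 DPA and its highest wxe mean at 11 DPA, both at 5 FPKM or more, and 847 of the 34129 genes in the table did. Each of these was scored by the smaller of its step down from 6 to 11 DPA in WT and its step up from 6 to 11 DPA in wxe, both on the scale log2(mean FPKM + 1), and the 60 highest scores were taken. All levels and differences at 6 and 11 DPA below are therefore a description of what was selected and carry no test.

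WT was the reference line BTx623, and wxe was a mutant line induced in it with ethyl methane sulfonate, homozygous for a stop-gained allele of SbGBSSI, the granule-bound starch synthase that makes amylose. Both were grown in the field in adjacent rows with bagged panicles, and endosperm was dissected from the seeds of frozen panicles of 6, 11, 16 and 21 DPA. Each of the 8 groups had 2 replicates, and each replicate pooled the middle of 3 panicles that flowered on 1 day, so the 2 values of a group measure the spread between such pools. The mutant is a single line that also carries other induced mutations, and its difference from WT is the difference of the line.

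In cereals the young endosperm first forms its cells by rapid division and then turns to grain filling, when starch and the kafirin storage proteins accumulate and many early transcripts decline. None of the 60 gene IDs could be paired with a name. The RefSeq gene table for BTx623 at hand holds 0 of them, and also 0 of all 34129 IDs with FPKM values. Of the 60, 0 are among the 37 genes that the paper names by ID. The genes are therefore given by ID and grouped by the shape of their time course, and no role is given to any of them.

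SbGBSSI itself was lower in both wxe libraries than in both WT libraries at every age, with 847 and 752 FPKM in WT and 331 and 329 FPKM in wxe at 6 DPA. The table gives no read counts, but the values of rarely detected genes fall on steps worth 1 fragment. If the values are scaled to each library's total alone, these steps put the depth of the 16 libraries between 0.403 and 1.02 times that of WT 6 DPA replicate 1. On that reading the libraries of 6 DPA lay between 0.917 and 1.02 and the others between 0.403 and 0.631. Whether the values also carry a scaling between libraries was not tested. The 20 most abundant genes held 9.12% to 10.1% of the summed FPKM at 6 DPA, 47.3% to 48.0% in WT and 39.5% to 42.0% in wxe at 11 DPA, and 46.0% to 54.5% later. The median level of all 18349 expressed genes (a mean above 1 FPKM in at least 1 group) stayed between 2.63 and 2.79 on the log2(FPKM + 1) scale over the 16 libraries.

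Marker genes named in the paper moved with genotype and age. The summed FPKM of 4 starch genes of the starchy endosperm (SbGBSSI, SbSBEIIb, SbSSIIIa and SbAGPLS1) ran from 1894 to 2050 in WT and from 851 to 1041 in wxe at 6 DPA, and from 3899 to 4014 in WT and 3284 to 3735 in wxe at 11 DPA. The mutated gene SbGBSSI alone had 2657 and 2617 FPKM in WT and 1678 and 1633 FPKM in wxe at 11 DPA. Its gap there was wider than that of the sum. The other starch genes together were thus lower in wxe at 6 DPA but higher in wxe at 11 DPA. Globulin-1 and globulin-2, storage proteins of embryo and aleurone, of which 1 was above 1 FPKM in WT at 6 DPA and both were in the other groups, summed to 1.59 to 1.78 FPKM in WT and 3.60 to 8.96 FPKM in wxe at 6 DPA, and to 47.7 to 49.96 FPKM in WT and 14.1 to 21.8 FPKM in wxe at 11 DPA. Whether other tissue in the samples had a part in the levels of the 60 genes was not tested.

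Across the 60 genes the course of WT ran downward and that of wxe rose before it fell. With each gene centred on its own mean over the 8 groups, the 4 ages in order had WT medians of 0.50, -0.16, -0.14 and -0.33 on the log2(FPKM + 1) scale. In wxe the medians were 0.02, 0.63, -0.13 and -0.25 in the same order. The genotypes were thus apart at 6 and 11 DPA, in opposite directions, and close together at 16 and 21 DPA.

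**Figure D1:**
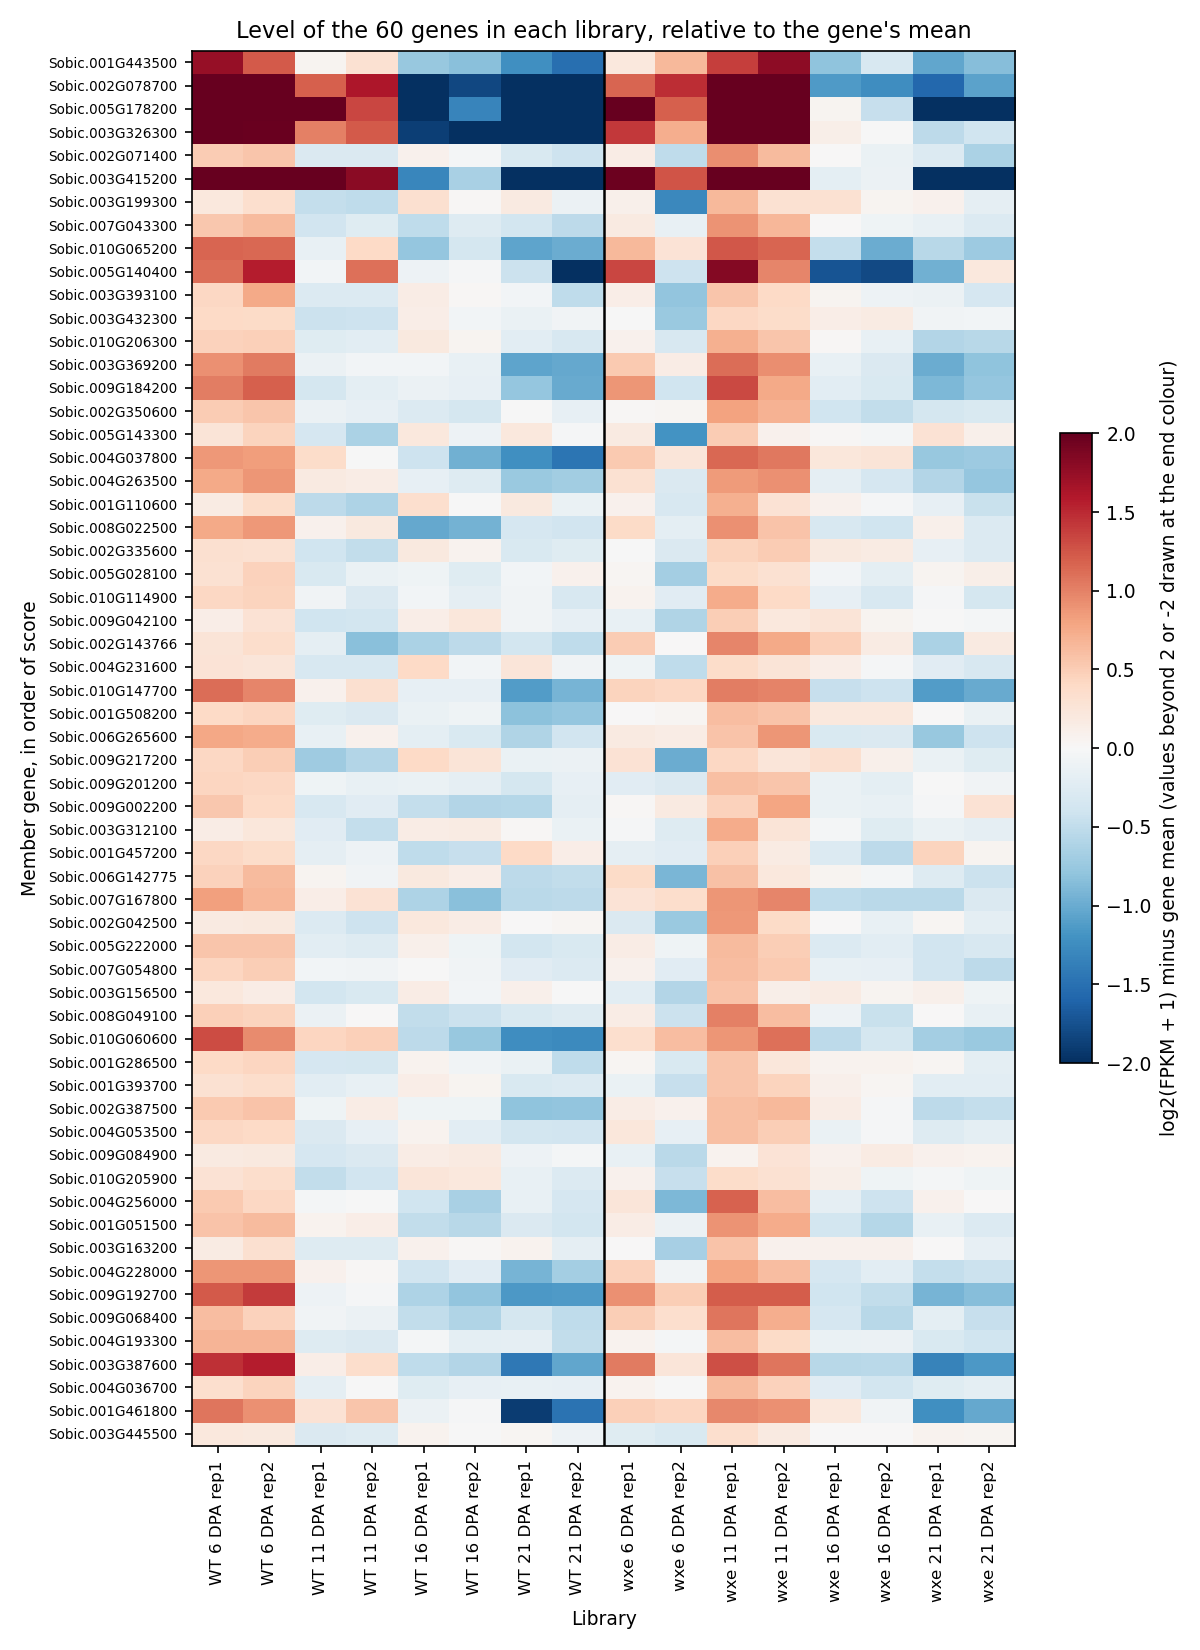
Level of each of the 60 genes (rows, in order of score) in each of the 16 libraries (columns), as log2(FPKM + 1) minus the gene's mean over all libraries. WT is high at 6 DPA and wxe at 11 DPA, and within wxe at 6 DPA replicate 2 is paler or bluer than replicate 1 in most rows.

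Scores lay between 0.48 and 1.15 around a median of 0.55, so most steps were of moderate size. The mean FPKM of WT at 6 DPA was 1.43 to 3.53 times that at 11 DPA, with a median of 1.71, and the mean FPKM of wxe at 11 DPA was 1.43 to 2.50 times that at 6 DPA, with a median of 1.62. Only 27 of the 847 genes with these peak ages had a score of 0.58 or more, and 3 scored 1 or more. A score of 0.58 is a change of about 1.5-fold in FPKM + 1 in both genotypes. Genes under that score can still exceed 1.5-fold in FPKM, such as Sobic.003G445500 with ratios of 1.503 in WT and 1.57 in wxe. The median score of the 847 genes was 0.17, and 275 scored under 0.1. At the border of the list the scores were close: Sobic.004G036700, Sobic.001G461800 and Sobic.003G445500 were the last inside with 0.49, 0.48 and 0.48, and Sobic.002G105900, Sobic.002G273000 and Sobic.007G047100 the first outside with 0.48 each.

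**Figure D2:**
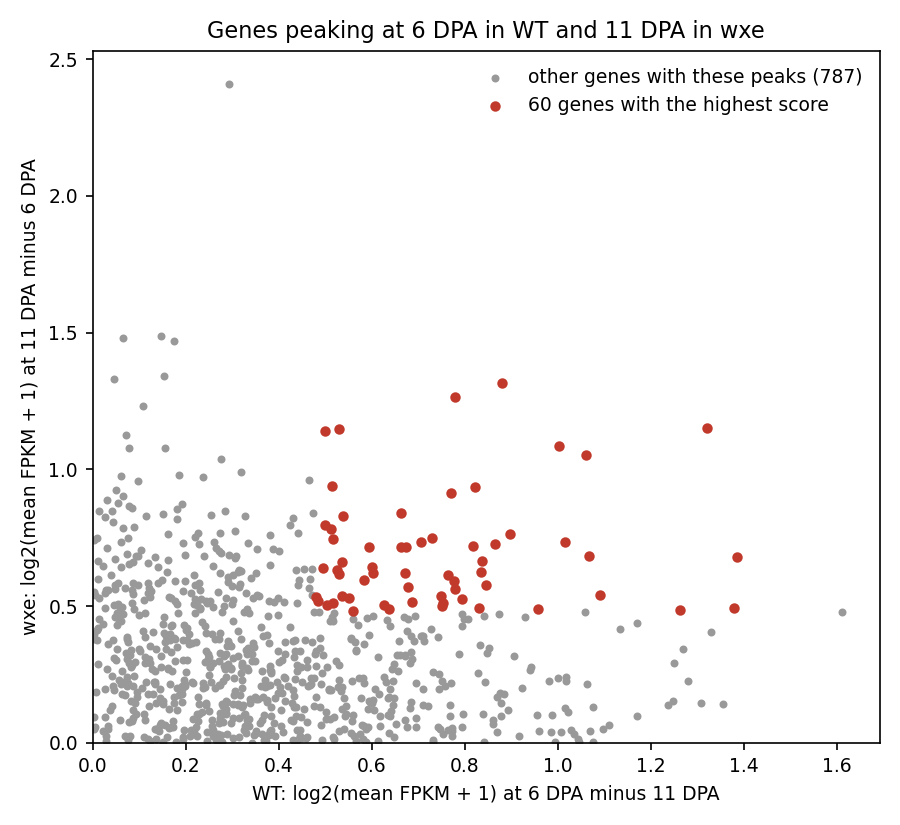
Step down from 6 to 11 DPA in WT (x axis) against step up from 6 to 11 DPA in wxe (y axis), both in log2(mean FPKM + 1), for the 847 genes with these peak ages. The 60 genes of the report (red) have both steps at 0.48 or more, and the other 787 (grey) have at least 1 smaller step and adjoin the red points at the border of the list.

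Levels spread over a wide range. In WT at 6 DPA, 23 of the 60 genes had a mean under 10 FPKM, 28 between 10 and 50 FPKM and 9 above 50 FPKM. The later peak in wxe was about as high as the earlier peak in WT: the ratio of the 2 peak means lay between 0.776 and 1.54 (median 1.08), and the wxe peak was the higher one in 40 genes and the lower one in 20. By the chromosome number in their IDs the genes came from all 10 chromosomes, with 11 of 60 (18.3%) on chromosome 3, which holds 14.4% of the expressed genes. No 2 of them were next to each other in the table, and the closest pair, Sobic.010G205900 and Sobic.010G206300, lay 4 table positions apart.

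Sobic.003G326300 (rank 4 by score) was by far the most abundant of the 60. Its FPKM in the WT pairs, from the youngest age to the oldest, was 4982 and 4857, 2475 and 2867, 332 and 235, then 76.3 and 68.6. The wxe pairs, in the same order, held 3277 and 2026, 6335 and 6880, 1326 and 1224, then 853 and 930.0 FPKM. The 2 genotypes overlapped at no age, with wxe below WT at 6 DPA and above it from 11 DPA on. In WT 6 DPA replicate 1 it was the most abundant transcript of all genes, and by 21 DPA it had fallen to ranks 1003 and 1201 in WT but to ranks 72 and 73 in wxe. It made up 68.3% to 79.1% of the summed FPKM of the 60 genes at 6 and 11 DPA in both genotypes, so at these ages the sum over the list is mostly a measure of this gene. In WT its share was 24.8% to 30.7% at 16 DPA and 10.3% to 11.0% at 21 DPA, and in wxe it was 56.8% to 61.9% at these 2 ages.

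The gene with the highest score, Sobic.001G443500, was a low gene. It had 12.04 and 8.11 FPKM in WT at 6 DPA and 3.06 and 3.82 at 11 DPA, against 3.54 and 5.10 FPKM in wxe at 6 DPA and 9.15 and 12.5 at 11 DPA. Both genotypes were at 0.37 to 2.14 FPKM at 16 and 21 DPA. Sobic.002G078700 (rank 2) had 84.2 and 74.4 FPKM in WT and 31.2 and 39.1 FPKM in wxe at 6 DPA, and 32.0 and 43.1 FPKM in WT and 62.9 and 84.8 FPKM in wxe at 11 DPA. In both genes the exchange of levels between 6 and 11 DPA was nearly complete, and they were among the 7 genes in which wxe 6 DPA replicate 2 was not below replicate 1.

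Sobic.005G178200 and Sobic.003G415200 (ranks 3 and 6) had replicates that lay far apart. Sobic.005G178200 had 307 and 464 FPKM in WT at 6 DPA, 250.3 and 133 FPKM in WT at 11 DPA, 282 and 120.3 FPKM in wxe at 6 DPA, and 565 and 290.0 FPKM in wxe at 11 DPA. Sobic.003G415200 had 225 and 402 FPKM in WT at 6 DPA, 199.5 and 165 FPKM in WT at 11 DPA, 183 and 112 FPKM in wxe at 6 DPA, and 446 and 266 FPKM in wxe at 11 DPA. In both genes replicate 2 was above replicate 1 in WT at 6 DPA and below it in WT at 11 DPA and in wxe at 6 and 11 DPA, and both fell below 7 FPKM in every library at 21 DPA. Sobic.005G140400 (rank 10) was also uneven, with 12.6 and 17.7 FPKM in WT at 6 DPA, 5.001 and 12.5 FPKM in WT at 11 DPA, 14.9 and 3.68 FPKM in wxe at 6 DPA and 21.2 and 11.3 FPKM in wxe at 11 DPA. It was the only one of the 60 that overlapped in 3 of the 4 pairs of groups the selection rests on, and it was listed at 0 in 1 WT library at 21 DPA.

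**Figure D3:**
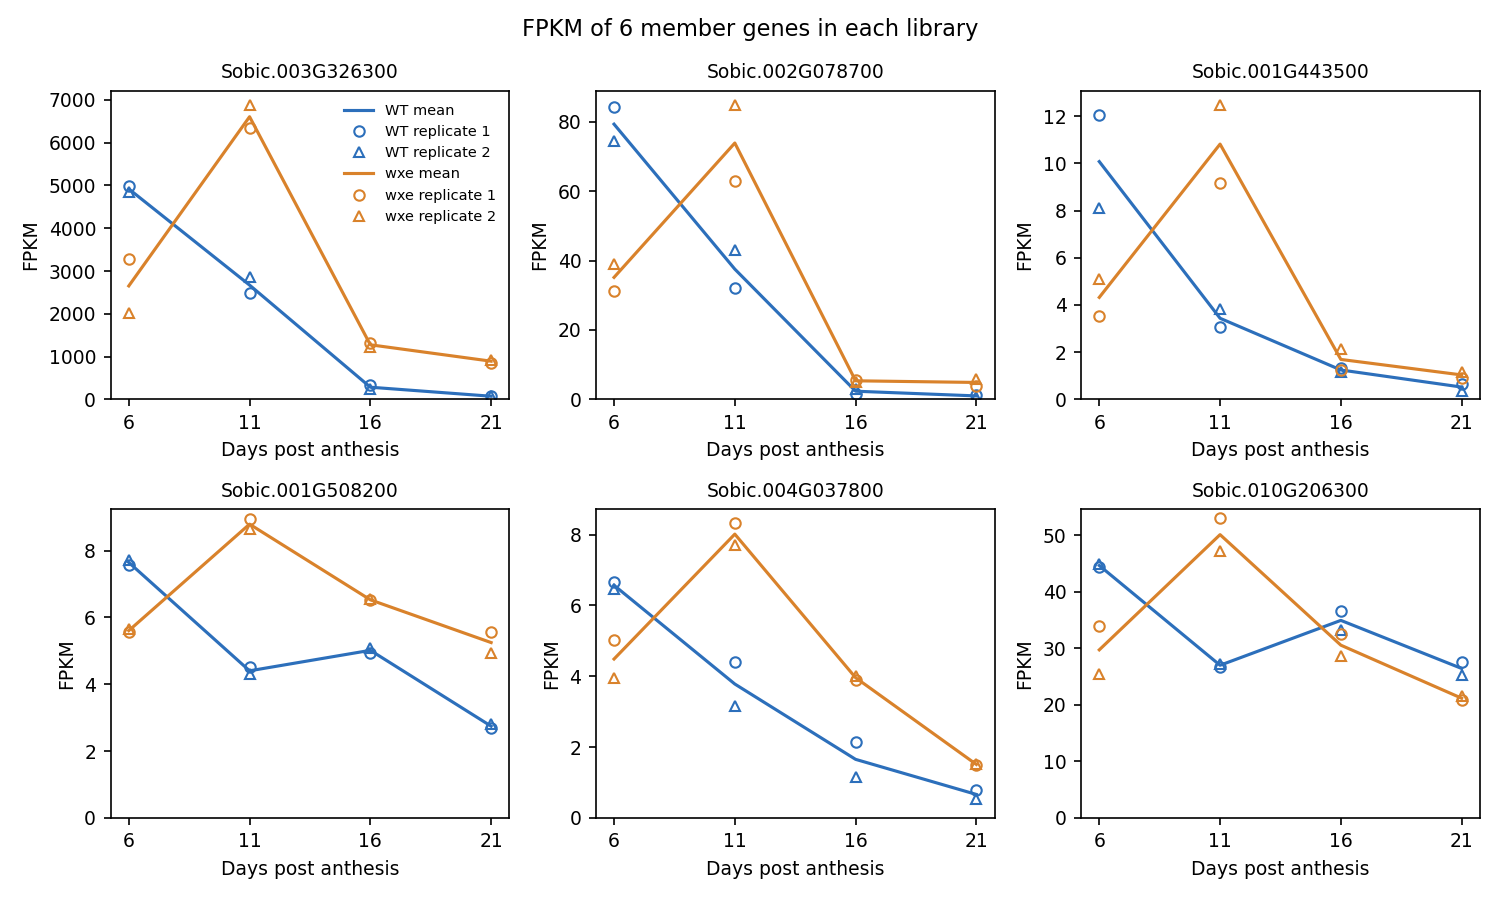
FPKM (y axis, starting at 0) of 6 of the genes against age in days post anthesis (x axis), with WT in blue, wxe in orange, circles for replicate 1, triangles for replicate 2 and lines through the group means. WT falls from 6 to 11 DPA where wxe rises. Of the genes drawn, Sobic.003G326300, Sobic.002G078700 and Sobic.001G508200 were called higher in wxe at 21 DPA by the test described below.

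The genes were divided into 2 shapes by whether the WT mean fell by 1 or more on the log2 scale from 6 to 21 DPA. This cut was set after the values were seen. The WT changes ran through it without a gap, with -1.003 and -0.966 nearest to it on either side. Contrasts between the shapes in WT therefore follow in part from the cut. In 25 genes the WT mean fell by 1 or more on the log2 scale from 6 to 21 DPA, with a median change of -2.07, and in none of them was 11 DPA the lowest WT age. The wxe mean of these 25 genes changed by a median of -1.85 from 11 to 21 DPA. The 6 genes described so far belong here, as do 6 more of the 20 highest scores. Sobic.010G065200 had 8.45 and 8.35 FPKM in WT at 6 DPA and 2.78 and 4.52 at 11 DPA, against 5.60 and 4.07 FPKM in wxe at 6 DPA and 8.98 and 8.43 at 11 DPA, and it was at 1.03 to 1.85 FPKM in all 4 libraries of 21 DPA. Sobic.003G369200 went from 9.60 and 10.6 to 4.19 and 4.39 FPKM in WT and from 7.05 and 5.20 to 11.2 and 9.72 FPKM in wxe between these ages.

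The remaining 4 of these were also low or moderate genes. Sobic.007G043300 had 5.97 and 6.51 FPKM in WT at 6 DPA and 2.68 and 3.10 at 11 DPA, against 4.45 and 3.35 FPKM in wxe at 6 DPA and 7.97 and 6.65 at 11 DPA. Sobic.009G184200 had 8.50 and 9.68 FPKM in WT at 6 DPA and 2.65 and 3.08 at 11 DPA, against 7.62 and 2.53 FPKM in wxe at 6 DPA and 10.6 and 6.91 at 11 DPA. The wxe ages of this gene overlapped, since replicate 1 of 6 DPA was above replicate 2 of 11 DPA. Sobic.004G037800 had 6.66 and 6.48 FPKM in WT at 6 DPA and 4.39 and 3.17 at 11 DPA, against 5.03 and 3.94 FPKM in wxe at 6 DPA and 8.33 and 7.69 at 11 DPA. Sobic.004G263500 had 22.1 and 24.2 FPKM in WT at 6 DPA and 14.5 and 14.03 at 11 DPA, against 15.9 and 10.1 FPKM in wxe at 6 DPA and 23.5 and 24.6 at 11 DPA. In these 2 genes the libraries overlapped neither between the ages of a genotype nor between the genotypes at an age.

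In the other 35 genes the level at 21 DPA was much closer to that of the peak, with a median change of -0.59 in WT from 6 to 21 DPA and of -0.70 in wxe from 11 to 21 DPA. Here 11 DPA was the lowest WT age in 18 genes and 6 DPA the lowest wxe age in 17 genes, 15 of them the same genes. In those 15 genes the pattern was a dip, at 11 DPA in WT and at 6 DPA in wxe, as much as a peak. In 25 of the 35 the WT mean was higher at 16 than at 11 DPA, and in 7 of the 60 the WT mean at 6 DPA exceeded that of the next highest age by less than 0.1 on the log2 scale. Sobic.009G084900 is an example, with WT pairs of 34.1 and 34.6, 23.6 and 24.3, 33.2 and 34.0, then 27.9 and 29.3 FPKM from the youngest age to the oldest. Its wxe pairs in the same order were 27.1 and 20.4, 31.7 and 36.6, 31.8 and 33.6, then 31.8 and 31.4 FPKM, and the lowest libraries of each genotype were those of 11 DPA in WT and of 6 DPA in wxe.

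Other genes of this flatter shape with high scores were Sobic.002G071400, Sobic.010G206300 and Sobic.002G335600. Sobic.002G071400 (rank 5) had 17.5 and 18.05 FPKM in WT at 6 DPA and 9.62 and 9.61 at 11 DPA, against 13.3 and 8.13 FPKM in wxe at 6 DPA and 23.7 and 19.2 at 11 DPA. Sobic.010G206300 had 44.4 and 45.0 FPKM in WT at 6 DPA and 26.7 and 27.3 at 11 DPA, against 34.1 and 25.4 FPKM in wxe at 6 DPA and 53.1 and 47.2 at 11 DPA. In both genes the WT replicates were close and those of wxe at 6 DPA were apart. Sobic.002G335600, the most abundant of these 3, had 68.3 and 68.1 FPKM in WT and 54.7 and 44.6 FPKM in wxe at 6 DPA, and 41.1 and 38.5 FPKM in WT and 74.9 and 78.0 FPKM in wxe at 11 DPA.

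The other 6 of the 20 highest scores had this shape too. Sobic.003G199300 had 9.15 and 10.02 FPKM in WT at 6 DPA and 5.28 and 5.13 at 11 DPA, against 8.40 and 2.56 FPKM in wxe at 6 DPA and 12.7 and 9.76 at 11 DPA. Sobic.003G432300 had 14.4 and 14.3 FPKM in WT at 6 DPA and 7.68 and 7.74 at 11 DPA, against 10.6 and 5.95 FPKM in wxe at 6 DPA and 14.5 and 14.03 at 11 DPA. Both had wxe replicates of 6 DPA that lay farther apart than the WT replicates of any of these ages. Sobic.003G393100 had 6.17 and 8.12 FPKM in WT at 6 DPA and 3.46 and 3.49 at 11 DPA, against 4.96 and 2.13 FPKM in wxe at 6 DPA and 6.93 and 6.12 at 11 DPA. Sobic.005G143300 had 19.4 and 22.1 FPKM in WT at 6 DPA and 12.5 and 9.88 at 11 DPA, against 18.1 and 6.40 FPKM in wxe at 6 DPA and 23.2 and 16.9 at 11 DPA, so that its wxe ages overlapped. Sobic.002G350600 had 23.1 and 23.9 FPKM in WT at 6 DPA and 14.7 and 14.05 at 11 DPA, against 16.2 and 16.4 FPKM in wxe at 6 DPA and 28.5 and 26.4 at 11 DPA, with even replicates throughout. Sobic.001G110600 had 14.8 and 17.2 FPKM in WT at 6 DPA and 8.83 and 8.18 at 11 DPA, against 13.9 and 10.2 FPKM in wxe at 6 DPA and 22.1 and 16.2 at 11 DPA.

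The replicates separated the ages and genotypes in most of the genes, as the choice by group means favours. Both WT libraries of 6 DPA lay above both of 11 DPA in 60 of 60 genes (42.8% of all expressed genes), and both wxe libraries of 11 DPA above both of 6 DPA in 55 (36.2% of all), with both separations in 55 (6.55% of all). At 6 DPA both WT libraries lay above both wxe libraries in 57 genes (31.5% of all), and at 11 DPA both wxe libraries above both WT libraries in 59 (31.7% of all). In limma's model of log2(FPKM + 1), 29 of the 60 were called lower in wxe at 6 DPA, where 5.15% of all tested genes were, and 49 were called higher at 11 DPA, where 5.78% were. Between 6 and 11 DPA, 38 were called lower at 11 DPA in WT (21% of all) and 0 higher (19.6% of all), and 35 were called higher in wxe (19.1% of all) and 0 lower (28.3% of all). These shares follow from the rule and nothing is read from them.

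Among the values that chose the genes, the 2 wxe libraries of 6 DPA lay farthest apart. Their difference cannot tell which of the 2 is the unusual one. At 6 DPA, wxe replicate 2 was below replicate 1 in 53 of the 60 genes, with a median difference of -0.38 on the log2(FPKM + 1) scale, while over all expressed genes it was below in 40.6%. Over all 847 genes with these peak ages it was below in 56.7%, with a median difference of -0.04. Over all expressed genes the SD of this replicate difference was 0.39 in wxe at 6 DPA and 0.23 to 0.30 in the other groups. For the 60 genes the next largest median difference of a group was -0.16, in wxe at 11 DPA. There replicate 2 was below replicate 1 in 48 of the 60, against 43.3% of all expressed genes. Against the mean of the 2 WT libraries of 6 DPA the median difference was -0.40 for wxe replicate 1 and -0.78 for replicate 2, and replicate 1 alone lay below both WT libraries in 57 genes. It lay below both wxe libraries of 11 DPA in 55 genes. With wxe 6 DPA replicate 2 left out, 37 of the 60 genes were again among the top 60, and with replicate 1 left out 39 were. Leaving out wxe 11 DPA replicate 1 kept 40 of them, and leaving out its replicate 2 kept 43. The largest replicate differences in wxe at 6 DPA were those of Sobic.005G140400 at -1.76 and of Sobic.003G199300, which had 8.40 FPKM in replicate 1 and 2.56 in replicate 2.

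**Figure D4:**
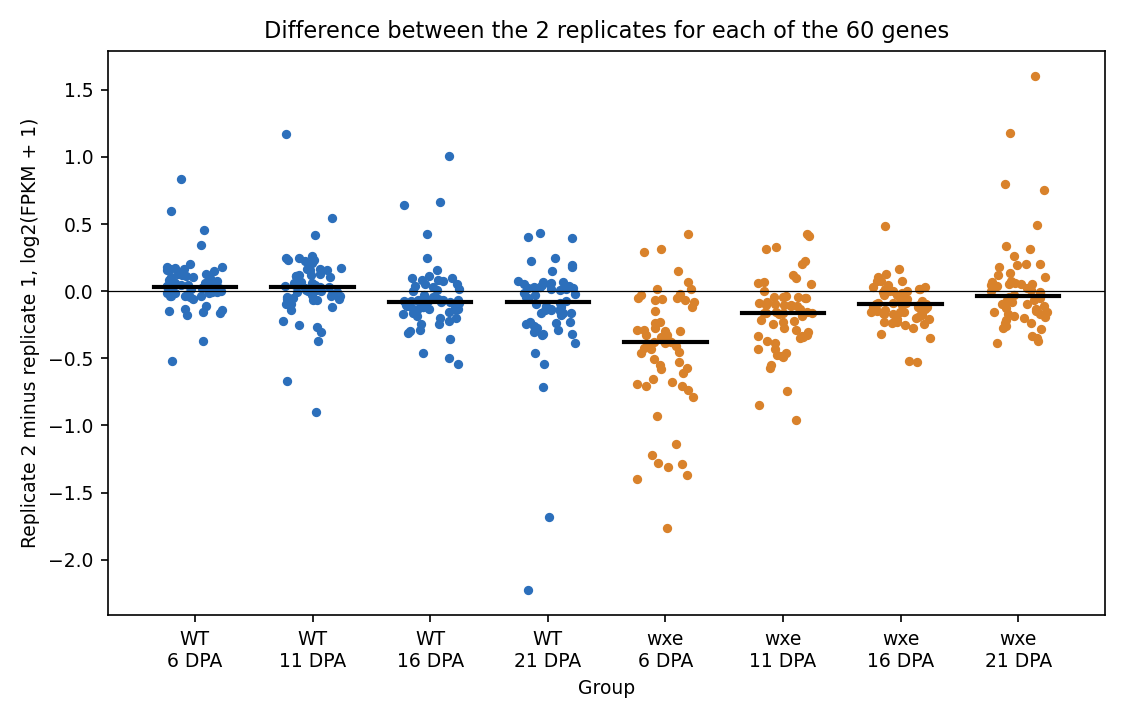
Replicate 2 minus replicate 1 in log2(FPKM + 1) for each of the 60 genes (points) in each of the 8 groups, with the median as a black bar. The bar of wxe at 6 DPA is at -0.38, and those of the other groups lie between -0.16 and 0.03.

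The genotype difference at 16 and 21 DPA was not used by the rule, except that no level could pass the peak. The limma test covered every gene whose mean exceeded 1 FPKM in WT or wxe at that age, and a call needed an adjusted p (Benjamini-Hochberg) under 0.05 together with a log2 fold change of 0.58 or more in size. At 16 DPA the 60 genes showed no common difference between the genotypes. The median log2 fold change was -0.0045, with 29 genes above 0 and 31 below it, and it was -0.02 over all 14990 tested genes. Of the 60, 2 were called higher in wxe (3.33%, against 0.674% of all tested genes) and 0 lower (against 0.314%). An unadjusted p below 0.05 was found for 11 of the 60 (18.3%), against 15.7% of all tested genes.

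Those called at 16 DPA were Sobic.003G326300 and Sobic.004G037800. Sobic.003G326300 differed by 2.19 on the log2 scale (SE 0.22, limma adjusted p = 9.07e-04), and it was called under every alternative tried. Sobic.004G037800 had 2.15 and 1.16 FPKM in WT and 3.91 and 4.01 FPKM in wxe at 16 DPA, a difference of 0.93 on the log2 scale (SE 0.18, limma adjusted p = 0.0308). Leaving out WT 16 DPA replicate 2 ended the call, as did leaving out either wxe library of 16 DPA. The call was also lost when low values were not filtered and when 16 DPA was fitted alone. With a minimum mean of 5 FPKM the gene was not tested. Over the alternatives its log2 fold change lay between 0.66 and 1.27. Sobic.005G178200 and Sobic.002G078700 had fold changes of similar or larger size that did not pass. The first had 9.58 and 20.3 FPKM in WT and 54.5 and 37.4 FPKM in wxe (log2 fold change 1.62, adjusted p = 0.137 from limma), and the second 1.61 and 3.07 FPKM in WT and 5.60 and 5.08 FPKM in wxe (log2 fold change 0.96, adjusted p = 0.0912 from limma). In the opposite direction, Sobic.005G140400 had 4.82 and 5.15 FPKM in WT and 0.893 and 0.782 FPKM in wxe, a difference of -1.70 on the log2 scale that did not pass either (limma adjusted p = 0.261), although it was called with 16 DPA fitted alone (0.0274).

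At 21 DPA, 57 of the 60 genes passed the FPKM filter. Of these 3 were called higher in wxe (5.26%, against 3.58% of all tested genes) and 0 lower (against 2.93%). An unadjusted p below 0.05 was found for 12 of the 57 (21.1%), against 27.2% of all tested genes. The count of calls depended on the settings: with a pseudocount of 0.1, 6 genes were called higher (against 4.5% of all tested genes), and with WT 21 DPA replicate 2 left out 5 were (against 3.72%). The median log2 fold change was 0.10, against 0.01 over all 14966 tested genes, with 40 genes above 0 and 17 below it. The same median of 0.10 was found for the 781 tested genes that had these peak ages but lower scores, and 0.09 and 0.10 for the genes that peaked at 6 DPA or at 11 DPA in both genotypes. The 573 tested genes with the opposite pair of peaks (11 DPA in WT and 6 DPA in wxe) had a median of -0.11. These medians were not tested against each other.

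The marker genes also differed between the genotypes at these ages. The starch genes summed to 8069 to 8455 FPKM in WT and 5982 to 6091 FPKM in wxe at 16 DPA, and to 10087 to 10380 FPKM in WT and 5687 to 6609 FPKM in wxe at 21 DPA. Most of each sum was the mutated gene SbGBSSI. It had 6454 and 6133 FPKM in WT and 3805 and 3917 FPKM in wxe at 16 DPA. At 21 DPA it had 8807 and 8599 FPKM in WT and 3920 and 4888 FPKM in wxe. Its gap was wider than that of the sum at both ages, so the other starch genes together were on average not lower in wxe. The globulins summed to 44.3 to 153 FPKM in WT and 220 to 262 FPKM in wxe at 16 DPA, and to 135 to 398 FPKM in WT and 401 to 442 FPKM in wxe at 21 DPA. Their part in the differences of the 60 genes was not tested.

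Sobic.003G326300 had the largest of these differences, at 3.60 on the log2 scale (SE 0.22, limma adjusted p = 4.06e-06). Sobic.002G078700 had 1.36 and 0.613 FPKM in WT and 3.87 and 5.86 FPKM in wxe at 21 DPA, a difference of 1.57 on the log2 scale (SE 0.26, limma adjusted p = 0.0033). Sobic.001G508200, a low gene with even replicates, had 7.58 and 7.71 FPKM in WT at 6 DPA and 4.51 and 4.29 at 11 DPA, against 5.56 and 5.64 FPKM in wxe at 6 DPA and 8.93 and 8.65 at 11 DPA. At 21 DPA it had 2.69 and 2.80 FPKM in WT and 5.57 and 4.92 FPKM in wxe (log2 fold change 0.74, SE 0.09, limma adjusted p = 9.49e-04). In each of these genes both wxe libraries lay above both WT libraries at 21 DPA. Sobic.009G002200, Sobic.010G060600 and Sobic.001G461800 had adjusted p values of 0.0482, 0.0284 and 0.0399 from limma with log2 fold changes of 0.51, 0.55 and 0.56, under the fold threshold.

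**Figure D5:**
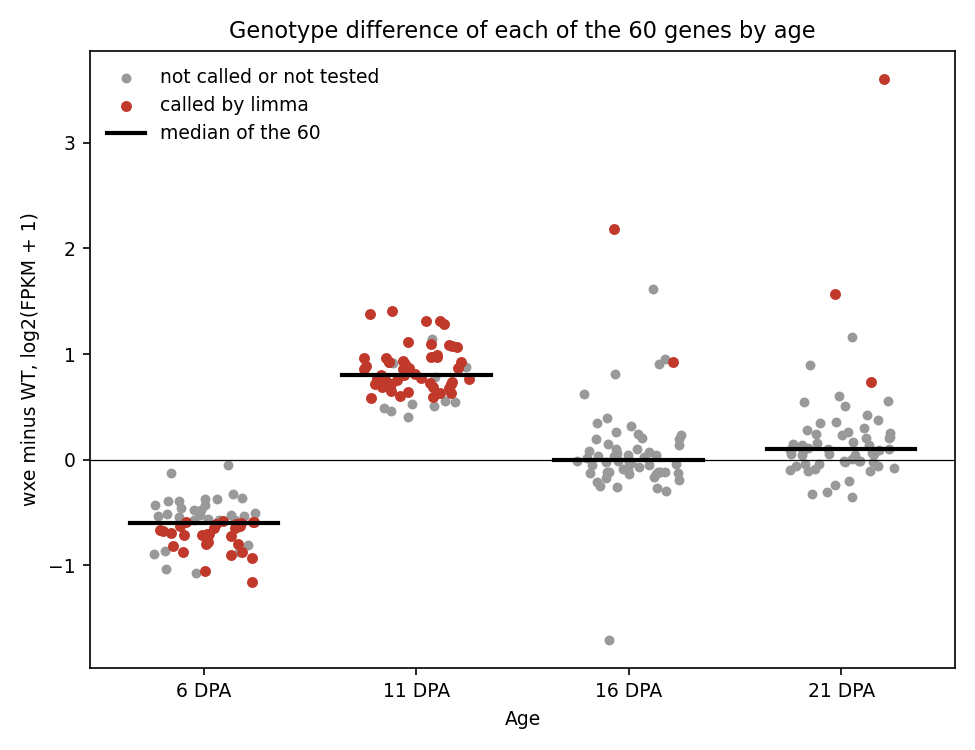
Difference between wxe and WT in log2(FPKM + 1) (y axis) at each age (x axis) for each of the 60 genes, with genes called by limma in red and the median of the 60 as a black bar. The medians are -0.60 at 6 DPA and 0.80 at 11 DPA, ages that chose the genes, and -0.0045 and 0.10 at 16 and 21 DPA.

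The change from 16 to 21 DPA was likewise not contrasted by the rule, though it shares the libraries of both ages with the comparisons above. The rule did bound it, since no gene with its highest mean at 21 DPA in either genotype could be chosen. All tested genes include such genes, 2487 of them with that peak in both genotypes at a mean of 5 FPKM or more. Fewer rises and a larger share of falls than over all genes are therefore favoured by the rule. In WT, 12 of 59 tested genes fell (20.3%, against 10.1% of all tested genes) and 2 rose (3.39%, against 11.3%), with a median log2 fold change of -0.30 against 0.00 over all genes. In wxe, 7 of 60 fell (11.7%, against 8.7%) and 1 rose (1.67%, against 10.4%), with a median of -0.20 against 0.03. The other genes with these peak ages fell in a share of 11.3% in WT and 4.84% in wxe, and rose in 1.15% and 1.91%. Genes that peaked at 6 DPA in both genotypes fell in a share of 21.2% in WT and 18.8% in wxe, and rose in 3.79% and 3.13%. Those that peaked at 11 DPA in both fell in a share of 9.86% and 6.19%, and rose in 6.1% and 4.77%. These shares were not tested against each other.

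The largest falls from 16 to 21 DPA were those of Sobic.003G415200 and Sobic.005G178200 in both genotypes. Sobic.003G415200 went from 18.2 and 29.4 to 3.78 and 0.489 FPKM in WT (log2 fold change -3.18, adjusted p = 0.00101 from limma) and from 40.3 and 42.6 to 0.951 and 4.91 FPKM in wxe (log2 fold change -3.64, adjusted p = 4.93e-04). Sobic.001G461800 fell from 4.13 and 4.48 to 0.489 and 1.01 FPKM in WT (log2 fold change -1.62, adjusted p = 1.67e-05 from limma) and from 5.44 and 4.32 to 1.37 and 1.74 FPKM in wxe (log2 fold change -1.20, adjusted p = 1.53e-04). Sobic.001G457200 was the gene called higher at 21 than at 16 DPA in both genotypes, with 2.82 and 2.96 FPKM at 16 DPA and 6.20 and 4.94 at 21 DPA in WT (log2 fold change 0.75, adjusted p = 0.00272 from limma) and 3.51 and 2.78 against 6.41 and 4.68 FPKM in wxe (log2 fold change 0.65, adjusted p = 0.00713). Its call in wxe was lost without wxe 16 DPA replicate 2 and without wxe 21 DPA replicate 1.

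None of the 60 genes was called for a difference between the genotypes in this change by limma (0 higher against 0.0383% of all tested genes and 0 lower against 0.0894%), and 3 of the 60 (5%, against 10.7% of all tested genes) had an unadjusted p below 0.05, namely Sobic.003G326300, Sobic.005G140400 and Sobic.001G508200. Sobic.003G326300 changed by -1.93 on the log2 scale from 16 to 21 DPA in WT (adjusted p = 4.53e-05 from limma), and the difference in this change, wxe minus WT, was 1.42 (SE 0.31, limma adjusted p = 0.104). Without wxe 6 DPA replicate 2 in the model, an alternative added after the values were seen, the same difference had an adjusted p of 0.0465 from limma.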

How the data were processed

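Endosperm RNA of the 16 libraries was sequenced from both ends. Per the labels and the paper's methods, the authors checked reads with FastQC, trimmed them with Trimmomatic, aligned them with STAR to the sorghum version 3 genome and computed the FPKM of each gene with Cufflinks; versions, annotation release and the handling of reads with several places are not given in the sources used here. The deposited table holds FPKM only.

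The 60 genes and all lists were chosen with earlier results of these data known. Planned lists by gene description could not be used, because 0 IDs matched the RefSeq table. Each value was taken as log2(FPKM + 1), and 18349 genes with a mean above 1 FPKM in at least 1 group were fitted with limma 3.58.1 in R 4.3.3, in 1 model of 8 groups with a variance trend (8 residual degrees of freedom). An exact permutation test of 2 against 2 libraries cannot go below p = 0.333, so calls rest on the spread shared across genes and groups. Fold changes on this scale understate those of low genes. The fit was tested on simulated data. Most genes named are among the 20 highest scores, called at 16 or 21 DPA, or at the border of the list. The others (examples of a shape, the closest pair, changes from 16 to 21 DPA and differences just under the fold threshold) were chosen after their values were seen.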

Additional observations from a re-analysis of the deposited data

How the results depend on the processing

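The choice of the 60 genes depended on single libraries and on the minimum level. Of the 60, 55 were again in the top 60 with a pseudocount of 0.1, 48 with a minimum of 1 FPKM, 35 with a minimum of 10 FPKM, 45 after median-ratio scaling and 50 after quantile normalization, and 37 to 60 when single libraries were left out, the lowest without wxe 6 DPA replicate 2. Under all 21 alternatives 9 genes stayed in the list. The number of genes with these peak ages ran from 634 to 1122 over the alternatives.

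At 16 DPA, 1 gene was called higher when low values were not filtered (against 0.185% of all tested genes), 1 when genes needed a mean of 5 FPKM (0.743%), and 1 to 2 when single libraries were left out (0.127% to 0.881%). The count was 1 without WT 16 DPA replicate 2 and without either wxe library of 16 DPA. Fitting 16 DPA alone gave 1 higher and 1 lower, the latter Sobic.005G140400. At 21 DPA, 6 genes were called higher with a pseudocount of 0.1 (4.5%), 5 when the ratio of FPKM means had to reach the fold threshold (4.47%), 2 with the minimum of 5 FPKM (3.55%), and 3 to 5 when single libraries were left out (2.06% to 3.84%), the highest without WT 21 DPA replicate 2. From 16 to 21 DPA, the minimum of 5 FPKM gave 6 calls in WT, 5 of them lower (9.58%) and 1 higher (12%), and 3 in wxe, 2 of them lower (8.82%) and 1 higher (10.9%), with fewer genes tested. Leaving out libraries gave 11 to 16 calls in WT, 10 to 14 of them lower (8.98% to 10.7%), and 5 to 9 in wxe, 5 to 8 of them lower (7.33% to 8.94%), the lowest in wxe without wxe 21 DPA replicate 1. The difference between genotypes in that change had 0 to 1 calls, the 1 without wxe 6 DPA replicate 2. The cause of the other shifts was not tested. The 60 genes held 27 calls in the comparisons of 16 and 21 DPA, also of genes not named here. Of their 363 values under alternatives in which the gene was tested, 332 kept the call, 31 lost it and 0 changed sign. Under these, 18 of the 27 calls were never lost, but several of the 18 were of genes not tested with the minimum of 5 FPKM.

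Replicate numbers were not taken to pair the samples: over 28 pairs of groups, the correlation of replicate deviations across genes lay between -0.28 and 0.37 (median 0.09), and it was above 0.1 in 12 and below -0.1 in 2. With a replicate block, 2 genes were called higher at 16 DPA (0.941%) and 4 at 21 DPA (3.9%). From 16 to 21 DPA, 12 were called lower (10.3%) and 2 higher (11.5%) in WT, 7 lower (9.04%) and 1 higher (10.7%) in wxe, and 0 for the difference of that change (0.166% higher and 0.338% lower). The FPKM worth of 1 fragment limits the low genes. In a late library it was up to 2.48 times that in WT 6 DPA replicate 1.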
